A study of Mus musculus with 2 samples.

Results

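Messenger RNA of 8 genes was followed across the cell types of the inflamed mouse joint, namely *Csf1r*, *Csf2ra*, *Csf2rb*, *Csf2rb2*, *Csf3r*, *Flt3*, *Kit* and *Csf1*. They encode the receptors for the colony-stimulating factors, the growth factor receptors FLT3 and KIT, and 1 ligand. The genes were taken by symbol, 8 of the 32524 genes listed, and all 8 were detected. C57BL/6 mice of 7 to 10 weeks received 1 mg β-glucan or PBS by intraperitoneal injection, and arthritis was induced 7 days later in both groups. β-glucan is a polysaccharide of fungal cell walls that is used to induce trained innate immunity. Synovial cells positive for CD45, a marker of blood-derived cells, and CD11b, a myeloid integrin, were sorted from the hind paws at day 17 of arthritis. The study names K/BxN serum transfer arthritis (K/BxN-STA) as the model, while the sample labels describe injection of a cocktail of arthritogenic antibodies followed by lipopolysaccharide. Cells of 4 mice were pooled into 1 droplet-based library per group, and no label ties a cell to a mouse. Setting β-glucan against PBS therefore compares 2 libraries, with no replicate check and no test, and all intervals are 95% intervals for counting error only.

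CSF1R is the receptor tyrosine kinase of macrophages, which depend on its ligands M-CSF (*Csf1*) and IL-34 for survival and, in bone, for the formation of osteoclasts. The receptor for GM-CSF pairs an α chain, CSF2RA, with the common β chain, CSF2RB, which also serves the receptors for IL-3 and IL-5. Mice carry a further β chain gene, *Csf2rb2*, whose product pairs with the IL-3 receptor α chain. CSF3R binds G-CSF and drives the output of neutrophils. FLT3 and KIT belong to the same kinase family as CSF1R. FLT3 sustains dendritic cells and their precursors, and KIT, the receptor for stem cell factor, is lost by most blood cells as they mature but kept by mast cells.

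The β-glucan library held 7196 barcodes and the PBS library 5760. Transcripts were counted by unique molecular identifiers (UMIs). A barcode was kept as a cell when it had 500 or more genes and no more than 10% mitochondrial UMIs, which left 5696 and 4553 cells with medians of 12458 and 14475 UMIs. The libraries shared 7 barcodes, of which 2 were among the cells kept in both. The 8 genes were left out of the clustering, which gave 20 clusters. A cluster was called X-like for the cell type whose markers scored highest in it, unless fewer than 3 of them were detected or its 10 leading genes held more markers of another type. The myeloid compartment joined 6 macrophage-like clusters, 2 clusters rich in MHC class II genes (antigen-presenting cell-like, APC-like), a type 1 dendritic-like cluster and 2 clusters without a name. Cluster 7 among the latter scored highest for MHC class II genes but was led by *Ccl17*, *Ccl22*, *Arg1* and other genes that include type 2 dendritic markers, so it had no name and is not in the APC-like values. It held 193 β-glucan cells and 368 PBS cells. Cluster 9 was led by *Chil3*, *Plac8* and *Ly6c2*, genes of monocytes, and by *Ltf* and *Ngp*, granule genes of neutrophil precursors. Smaller clusters were neutrophil-, mast-, B cell-, T cell-, natural killer-, stromal-, endothelial- and proliferating-like, although a CD45+CD11b+ sort should exclude several of these types. Levels are the UMIs of a gene per 1000000 UMIs (CPM), summed over the cells of a group.

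**Figure D1:**
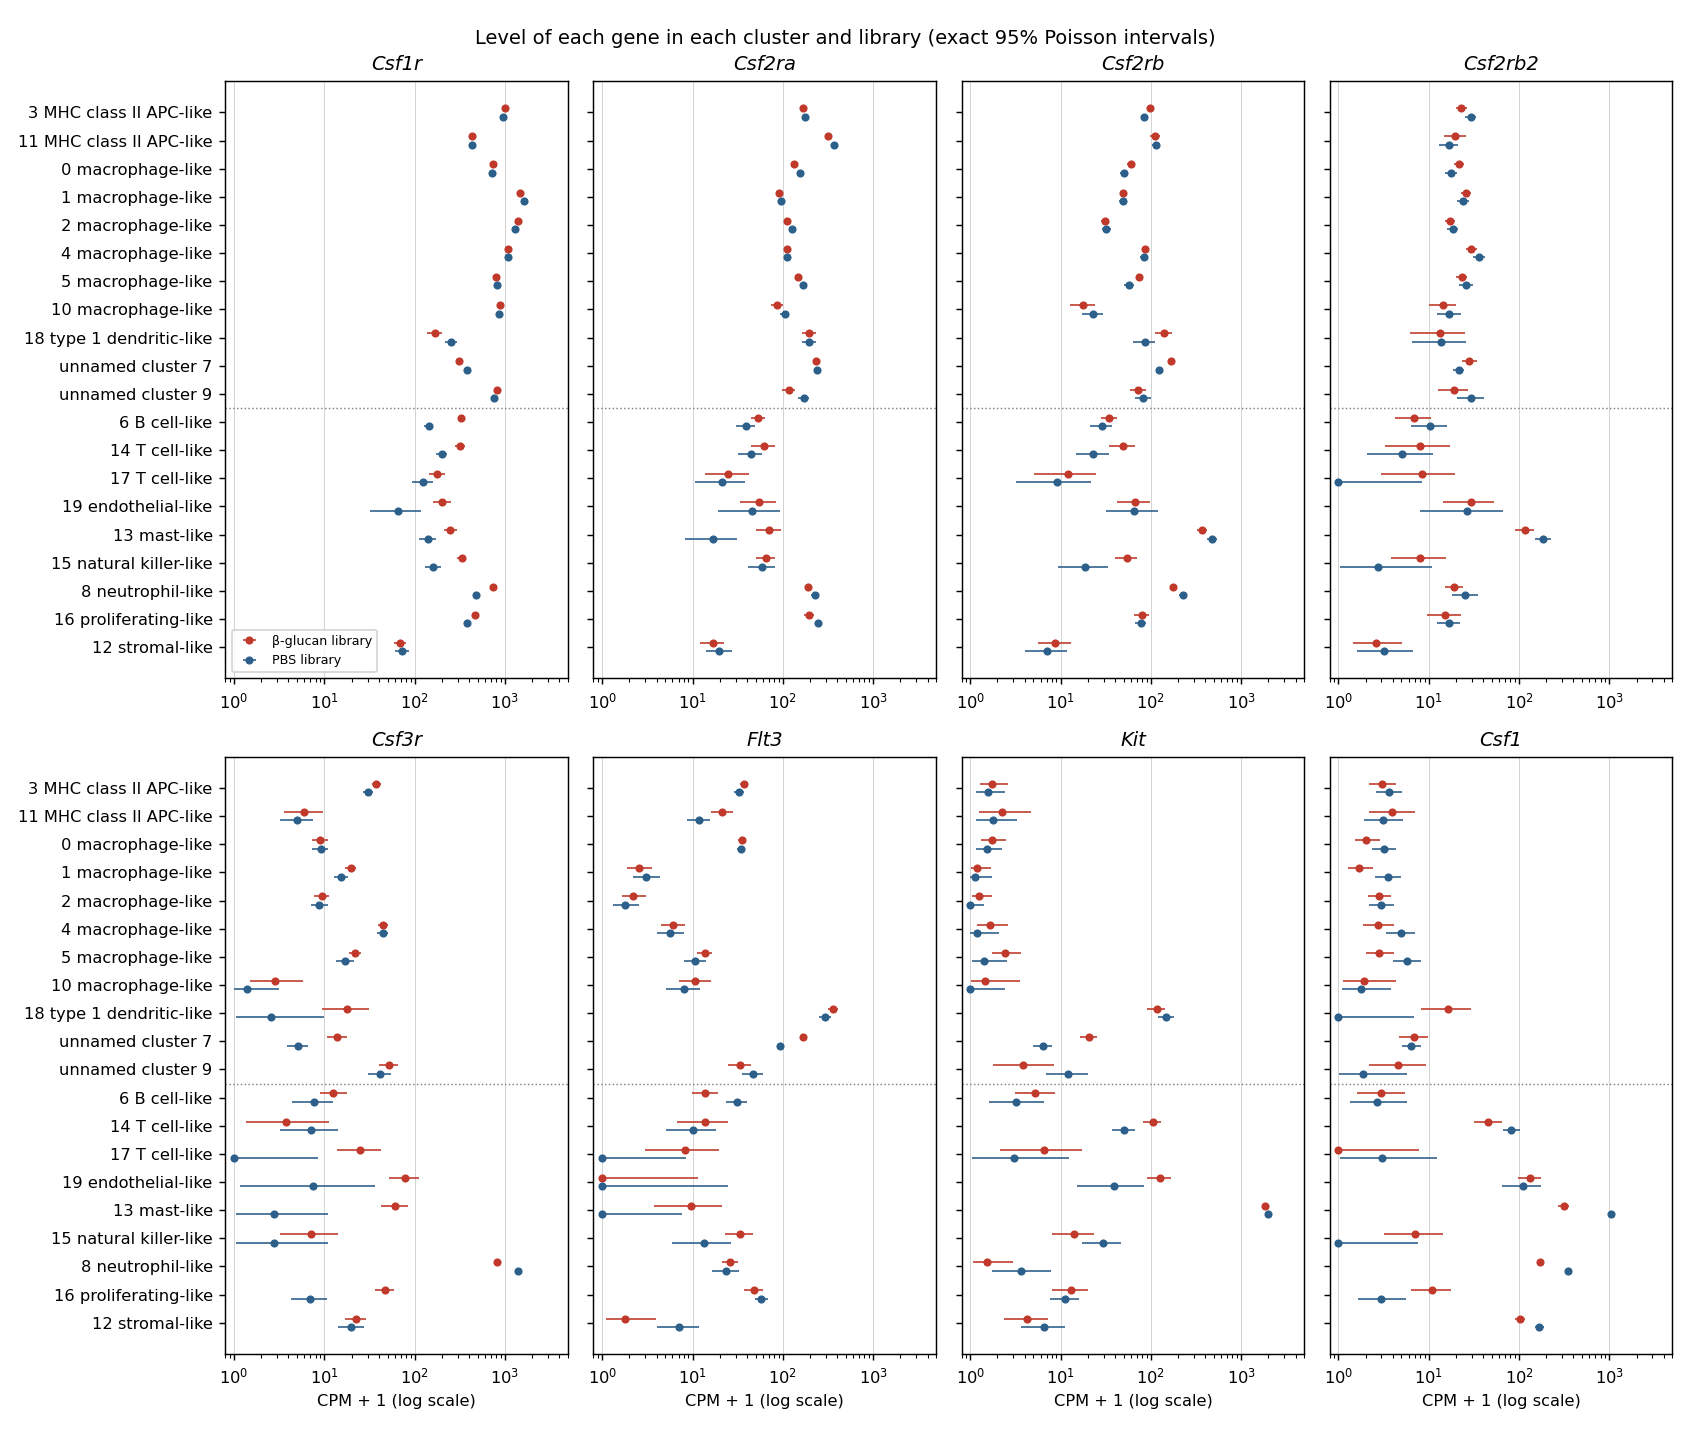
Level of each of the 8 genes (CPM + 1, log scale) in each of the 20 clusters, for the β-glucan library (red) and the PBS library (blue), with exact 95% Poisson intervals, above the dotted line the myeloid compartment. *Csf1r* was highest in macrophage-like clusters, *Csf3r* in the neutrophil-like cluster, *Kit* and *Csf1* in the mast-like cluster and *Flt3* in the type 1 dendritic-like cluster, and *Csf2ra* ranged from 85.2 to 372 CPM over the 10 larger clusters of the compartment.

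*Csf1r* was the macrophage receptor among these genes, and macrophage-like cells held a higher share of its UMIs (74.8% of 127738) than of those of the other 7. In macrophage-like cells it stood at 1100 CPM with β-glucan and 1097 CPM with PBS, and APC-like cells followed with 863 and 766 CPM. Among clusters the order was led by cluster 1 (1460 CPM with β-glucan and 1606 with PBS), marked by *Ednrb*, *C4b* and *Cd163*, and cluster 2 (1378 and 1283 CPM), marked by *Vsig4* and *S100b*, and the libraries' ranges of these neighbours did not overlap. The lowest macrophage-like cluster was cluster 0, marked by *Cav1* and *Spp1*, with 731 and 719 CPM. Cluster 11, which expressed *Retnla* and *Dcstamp*, had 431 and 427 CPM, and cluster 7 had 312 and 374 CPM. At a common depth of 2000 UMIs per cell, 83.4% of macrophage-like cells had a *Csf1r* UMI (98.1% unthinned, median 14006 UMIs), compared with 12.7% of T cell-like cells (23.2% unthinned, median 9038 UMIs). The gene lies at chr18:61229714-61266535 (GRCm39) and overlaps *Hmgxb3* on the other strand, which was also counted.

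The *Csf1r* UMIs outside the myeloid compartment stood in a nearly constant proportion to those of the complement genes *C1qa*, *C1qb* and *C1qc*, which macrophages transcribe. The compartment had 141 *Csf1r* UMIs per 1000 C1q UMIs. B cell-like, T cell-like, natural killer-like, stromal-like and mast-like cells, which should lack *Csf1r*, had between 141 and 161. Both free macrophage RNA and doublets with macrophages would keep such a ratio and were not told apart, and the *Csf1r* counts of these classes were not read as expression. Their level differed between the libraries. In B cell-like cells *Csf1r* was at 323 CPM with β-glucan and 142 CPM with PBS. The 8 macrophage markers there summed to 2743 and 1435 CPM. Of the B cell-like cells 15.1% and 6.12% were among those of highest doublet score, compared with 5.76% and 4.61% of all cells kept. The tool that gave the score, Scrublet, called only 1 and 7 cells and was taken not to have worked. The other genes did not keep 1 ratio over all classes. *Csf2rb2* had 3.09 to 4.55 in B cell-, T cell-, natural killer- and stromal-like cells against 3.21 in the compartment, but 114 in mast-like cells. *Csf2rb* was at 322 per 1000 C1q UMIs in mast-like and 48.6 in neutrophil-like cells against 10.2 in the compartment, and *Csf1* at 516 in mast-like, 262 in stromal-like and 56.9 in neutrophil-like cells against 0.363.

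**Figure D2:**
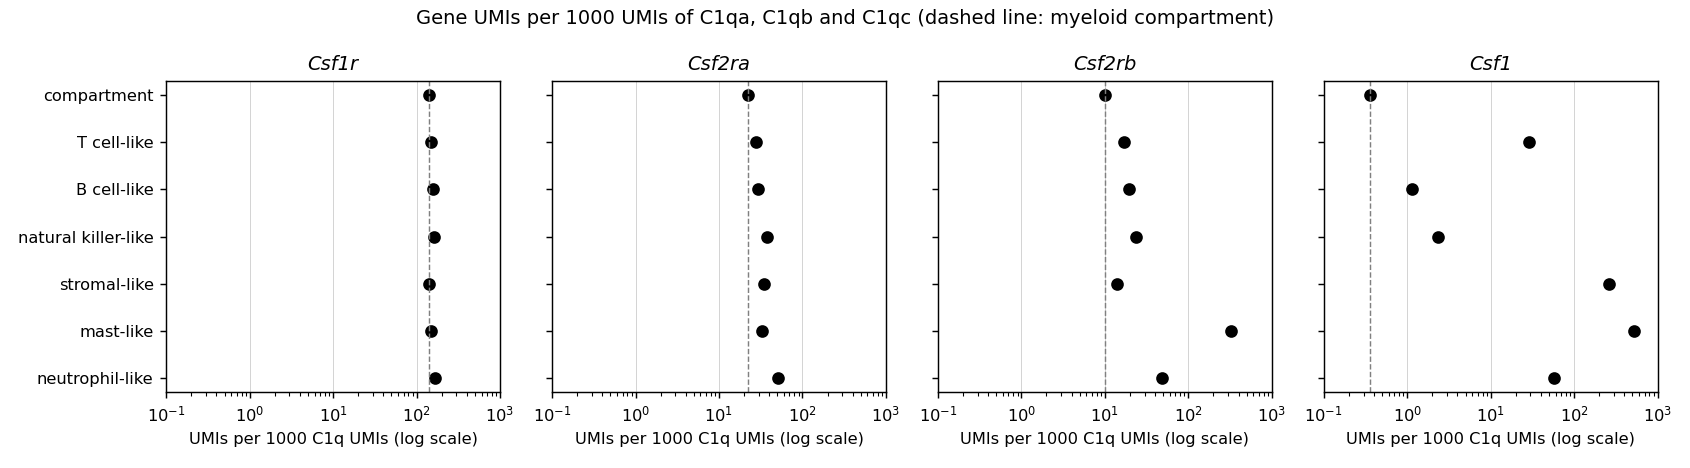
UMIs of *Csf1r*, *Csf2ra*, *Csf2rb* and *Csf1* per 1000 UMIs of *C1qa*, *C1qb* and *C1qc* (log scale) in the myeloid compartment (dashed line) and in 6 classes outside it, both libraries summed. *Csf1r* kept to 141 to 168 in the classes shown, while *Csf2rb* in mast-like cells and *Csf1* in mast-like, stromal-like and neutrophil-like cells lay far to the right of the compartment.

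Of the 8 genes, 6 had a mean of at least 5 CPM in the compartment, and 1 of them (*Csf3r*) was at least 1.2-fold higher with β-glucan and 1 (*Csf2ra*) at least 1.2-fold lower. Among all 9809 genes at that level, 6.80% were at least 1.2-fold higher and 4.49% at least 1.2-fold lower. In macrophage-like cells alone neither *Csf3r* (log2 ratio 0.22, 0.06 to 0.38) nor *Csf2ra* (-0.15, -0.20 to -0.09) passed 1.2-fold. In APC-like cells both did, at 0.51 (0.26 to 0.77) and -0.29 (-0.37 to -0.21). *Csf1r* was at 996 CPM (989 to 1004) with β-glucan and 915 CPM (908 to 923) with PBS over the compartment, a log2 ratio of 0.12 (0.11 to 0.14). This difference was not found among macrophage-like cells, where the log2 ratio was 0.0047 (-0.014 to 0.023). Within the 10 clusters of at least 100 cells per library, the log2 ratio of *Csf1r* ran from -0.26 in cluster 7 to 0.11 in cluster 9, higher in 6 and lower in 4. In a finer cluster that shared 544 cells with cluster 7 it was -0.094 (-0.18 to -0.0069). Without cluster 7, which has little *Csf1r* and fewer β-glucan cells, the compartment's log2 ratio was 0.048, and with equal weight per cluster it was -0.013.

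*Csf2ra*, the GM-CSF receptor α chain, was spread more evenly over the myeloid cells than *Csf1r*. It was highest in cluster 11, the APC-like cluster with *Retnla* and *Dcstamp*, at 312 CPM with β-glucan and 372 CPM with PBS. Cluster 7 (231 and 237 CPM), proliferating-like cells (193 and 243 CPM) and neutrophil-like cells (189 and 228 CPM) came next, and the ranges of these neighbours overlapped. Macrophage-like cells had 115 and 127 CPM, and their lowest clusters were cluster 1 (89.7 and 94.3 CPM) and cluster 10, which was marked by *Fxyd2* and *Aqp1* (85.2 and 103.9 CPM), with overlapping ranges. *Csf1r* and *Csf2ra* thus had different orders, since cluster 1 was the highest for *Csf1r* and cluster 11 one of the lower ones.

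*Csf2ra* was lower with β-glucan in each of the 10 clusters. Over the compartment it was at 136 CPM (134 to 139) with β-glucan and 166 CPM (162 to 169) with PBS, a log2 ratio of -0.28 (-0.32 to -0.24). The interval lay below 0 in 6 of the 10 clusters, and the log2 ratio ran from -0.57 in cluster 9 to -0.0082 in cluster 4. Of 6754 genes with at least 20 CPM, 3.72% were lower in each of these clusters. Neutrophil-like cells (-0.27, -0.46 to -0.079) and proliferating-like cells (-0.33, -0.54 to -0.12) outside the compartment had the same sign, although within the 2 finer clusters of neutrophil-like cells the values were -0.13 (-0.47 to 0.21) and -0.12 (-0.37 to 0.13), and type 1 dendritic-like cells had 194 and 193 CPM. *Csf2ra* is a short gene, spanning 4.498 kb at chr19:61212395-61216892 (GRCm39). The libraries also differ in the UMIs drawn from long genes. When cells were matched for these within clusters (genes of 100 kb or longer, 3153 cells per library), the log2 ratio was -0.087, of the same sign and smaller.

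**Figure D3:**
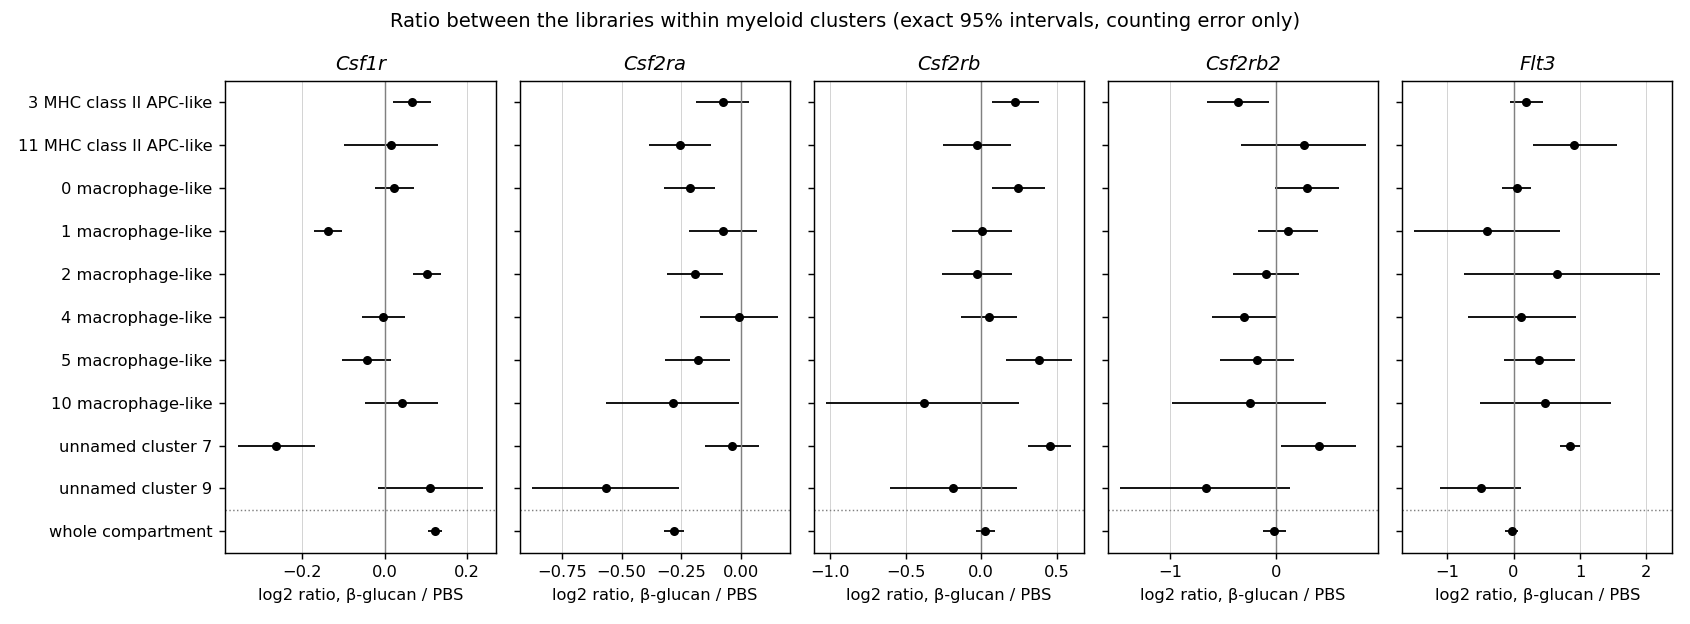
Log2 ratio of β-glucan over PBS for *Csf1r*, *Csf2ra*, *Csf2rb*, *Csf2rb2* and *Flt3* in the 10 compartment clusters with at least 100 cells per library and, below the dotted line, in the whole compartment, with exact 95% intervals for counting error. *Csf2ra* lay below 0 in all 10 clusters, while *Csf1r* lay on both sides of 0 and *Flt3* was highest above 0 in clusters 7 and 11.

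Among the classes, the β chain genes were highest in mast-like cells, which respond to IL-3. *Csf2rb* was at 369 CPM with β-glucan and 476 CPM with PBS there, followed by neutrophil-like cells (175 and 226 CPM) and cluster 7 (167 and 122 CPM), and macrophage-like cells were lower at 53.6 and 48.2 CPM. *Csf2rb2* was at 115 and 185 CPM in mast-like cells and at 21.5 and 21.6 CPM in macrophage-like cells. In the mast cells of the mast-like cluster without its basophils it was 103 and 97.3 CPM (log2 ratio 0.08, -0.51 to 0.67). *Csf2rb* in these mast cells was 318 CPM (273 to 368) with β-glucan and 355 CPM (302 to 413) with PBS. The mix of the 2 β chains differed between cell types. *Csf2rb2* gave 29.6% (28.5 to 30.7) of the β chain UMIs of macrophage-like cells and 26.1% (22.8 to 29.7) of those of mast-like cells, but 9.55% (7.86 to 11.5) in neutrophil-like cells. Macrophage-like clusters ran from 25.8% in cluster 0 to 43.2% in cluster 10. The share was also low in type 1 dendritic-like cells (10.1%, 5.86 to 15.8), cluster 11 (13.1%, 10.8 to 15.7) and cluster 7 (14.3%, 12.8 to 15.9). With β-glucan and PBS it was 28.6% and 30.9% in macrophage-like cells and 9.42% and 9.79% in neutrophil-like cells. The neutrophil-like class joined 2 finer clusters. In that led by *Retnlg*, *Csf2rb* was at 361 CPM (310 to 418) and 367 CPM (321 to 417). These intervals overlapped those of the mast cells without basophils. *Csf2rb2* in the *Retnlg*-led cluster was at 10.0 and 26.8 CPM (5 and 17 UMIs). In that led by *Acod1*, *Csf2rb* was at 145 and 123 CPM and *Csf2rb2* at 19.7 and 22.9 CPM. The share within each was not computed. In cluster 3 the *Csf2rb2* share was 18.6% (16.2 to 21.1) and 25.4% (22.4 to 28.6), intervals that did not overlap. In cluster 5 it was 23.3% (20.3 to 26.6) and 31.0% (26.4 to 36.0). Over the whole compartment the share was 23.8% (22.7 to 24.9) and 24.3% (23.2 to 25.5). In clusters 0, 1, 10 and 11 it was higher with β-glucan, as in cluster 11 with 14.6% and 12.2%. Both genes lie head to head on chromosome 15, at chr15:78209952-78238047 (*Csf2rb*, forward strand) and chr15:78166707-78189921 (*Csf2rb2*, reverse strand), 20030 bases apart. They are near copies, and 8.19% of the 90-base stretches of the *Csf2rb* transcript also occur in that of *Csf2rb2*. None of the 911 stretches in the last 1000 bases, where 3′ reads fall, was shared.

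Over the compartment neither β chain gene moved beyond counting error, with log2 ratios of 0.03 (-0.03 to 0.09) for *Csf2rb* and -0.02 (-0.13 to 0.09) for *Csf2rb2*. Within clusters *Csf2rb* was higher with β-glucan in 6 of 10, and the interval lay above 0 in clusters 0, 3, 5 and 7, of which cluster 7 had the highest log2 ratio at 0.45 (0.31 to 0.59). Cluster 7 also expressed more *Csf2rb* than most of the compartment and held fewer of the β-glucan cells. When the clusters were weighted equally, *Csf2rb* had a log2 ratio of 0.22, and on cells matched for long genes 0.21.

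A cell needs both chains to bind GM-CSF with high affinity, so the joint detection of *Csf2ra* with either β chain gene was counted, and with *Csf2rb* alone. At a common depth of 8000 UMIs, 27.6% (26.1 to 29.0) of 3770 β-glucan cells and 28.1% (26.6 to 29.8) of 3141 PBS cells of the compartment had a UMI of both *Csf2ra* and a β chain gene. The product of the single shares was 26.4% and 27.4%, so the chains were detected together about as often as if independent. Cells without both UMIs cannot be called negative, since the share was 42.2% and 48.9% without thinning. These shares include cells whose only β chain UMIs were of *Csf2rb2*. For *Csf2ra* with *Csf2rb* the shares at 8000 UMIs were 22.6% (21.3 to 24.0) and 22.9% (21.4 to 24.4). The products of the single shares were 21.3% and 21.8%, and the shares without thinning 36.0% and 41.9%.

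*Csf3r* marked the neutrophil-like cells, which had 806 CPM (777 to 836) with β-glucan and 1376 CPM (1317 to 1436) with PBS, and 67.5% of all its UMIs. In the compartment it was highest in cluster 9 with 50.3 and 40.4 CPM, cluster 4 with 43.6 and 43.1 CPM, and cluster 3 with 36.5 and 29.3 CPM. The gene lies at chr4:125918262-125938236 (GRCm39). Macrophage-like cells had 1134 *Csf3r* UMIs per 1000 UMIs of *S100a8* and *S100a9* compared with 50.3 in neutrophil-like cells. Mast-like cells had 63.8, and their *Csf3r* (60.0 and 1.78 CPM) moved with the neutrophil markers there (1053 and 62.2 CPM). Over the compartment *Csf3r* was at 19.2 and 14.3 CPM, a log2 ratio of 0.43 (0.30 to 0.55), and was higher with β-glucan in 9 of 10 clusters. The interval lay above 0 in 3 of them, and in cluster 10 the value rested on 4 and 1 UMIs. The 6 neutrophil markers summed to 19.6 CPM with β-glucan and 120 CPM with PBS in the compartment. This sum was not split by gene and can rest on 1 gene. In PBS type 1 dendritic-like cells 1 of the markers gave 546 of 548 CPM, and 4 of the 6 gave 0 UMIs. The part of neutrophil RNA in the compartment's *Csf3r* was not tested.

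The lower *Csf3r* level of the β-glucan neutrophil-like cells, a log2 ratio of -0.77 (-0.85 to -0.69), went with a different make-up of the class. In this class 34.1% of 6379 genes were at least 1.2-fold higher with β-glucan and 19.5% at least 1.2-fold lower. Its β-glucan cells had a median of 9528 UMIs and 6521 CPM of the 8 macrophage markers, its PBS cells 4577 UMIs and 3656 CPM, and the neutrophil markers summed to 17522 and 32155 CPM. Finer clustering divided it. A cluster led by *Retnlg*, *Mmp8* and *S100a9* held 108 β-glucan and 127 PBS cells, and *Csf3r* there was 2746 CPM with β-glucan and 2507 CPM with PBS, a log2 ratio of 0.13 (0.026 to 0.24). The other, led by *Acod1*, *Il1r2* and *Il1b*, held 147 and 46 cells with 498 and 556 CPM, a log2 ratio of -0.16 (-0.30 to -0.0067). Cells of highest doublet score made up 34.7% of the *Acod1*-led cluster and 1.70% of the *Retnlg*-led one, both libraries pooled. Over the neutrophil-like class their share was lower with β-glucan (13.4%) than with PBS (20.8%). It was not split by library within the finer clusters. Such cells were 5.76% of all β-glucan cells and 4.61% of all PBS cells, and the doublet calling was taken not to have worked. *Csf1r* was at 820 and 732 CPM in the *Acod1*-led cluster and 157 and 110 CPM in the *Retnlg*-led one. Among the 64 β-glucan and 75 PBS cells without a C1q UMI, the log2 ratio was -0.18 (-0.32 to -0.033), and among the 190 and 98 cells with a C1q UMI it was -0.69 (-0.79 to -0.59), close to that of the class. What part the make-up of the class has in the difference was not tested.

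**Figure D4:**
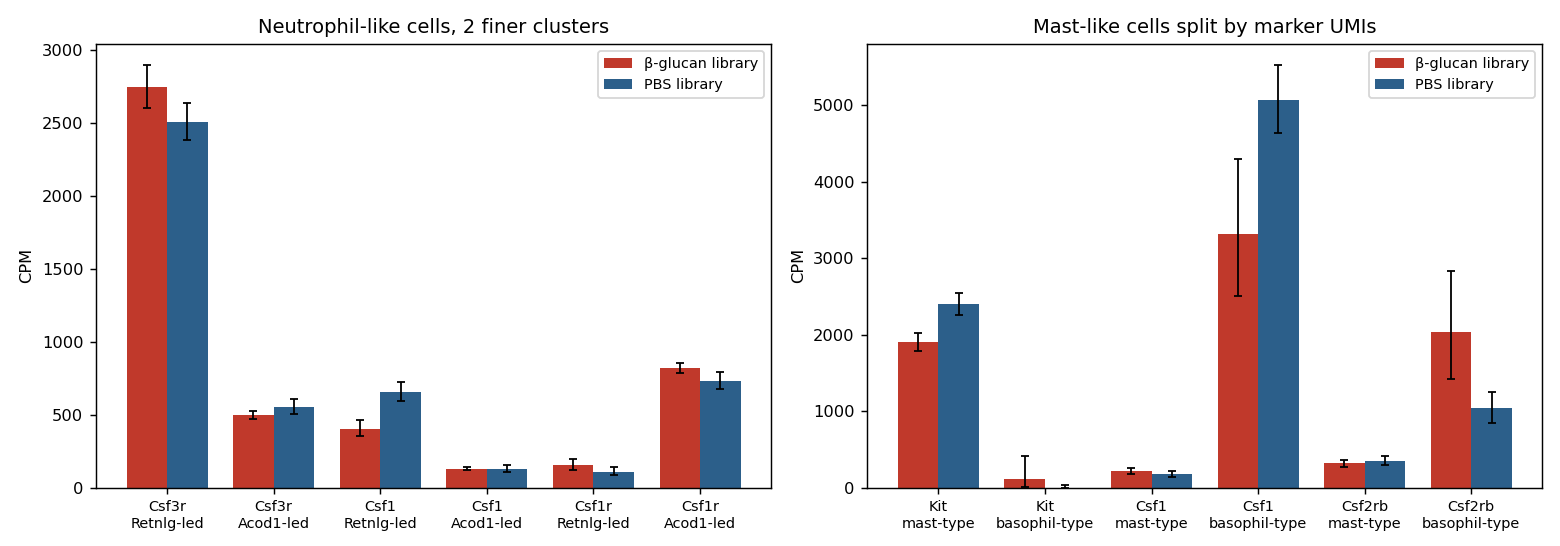
Left, CPM of *Csf3r*, *Csf1* and *Csf1r* in the 2 finer clusters of the neutrophil-like cells, right, CPM of *Kit*, *Csf1* and *Csf2rb* in mast-type and basophil-type cells, for the β-glucan library (red) and the PBS library (blue), with exact 95% Poisson intervals as error bars. *Csf3r* in the *Retnlg*-led cluster was 2746 and 2507 CPM, and *Csf1* in basophil-type cells was 3316 and 5063 CPM.

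The regions from 250 bases before to 50 bases after the start of transcription are shown for genes with contrasting cell types, *Csf2ra* (broad myeloid), *Csf3r* (neutrophil) and *Kit* (mast cell). *Spi1* encodes PU.1, a factor of the ETS family that acts on many myeloid genes, and capitals mark AGGAAG or its reverse complement CTTCCT, a form of the ETS core. The sequences are those of RefSeq on GRCm38.p6, an earlier build than that of the counts, at chr19:61228369-61228668 (reverse strand), chr4:126024409-126024708 (forward) and chr5:75574737-75575036 (forward).
Csf2ra: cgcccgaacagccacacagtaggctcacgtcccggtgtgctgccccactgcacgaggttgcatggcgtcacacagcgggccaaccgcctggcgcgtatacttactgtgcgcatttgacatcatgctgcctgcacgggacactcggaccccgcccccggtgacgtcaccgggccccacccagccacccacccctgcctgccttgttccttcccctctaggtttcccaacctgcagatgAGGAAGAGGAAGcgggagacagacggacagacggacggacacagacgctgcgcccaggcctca
Csf3r: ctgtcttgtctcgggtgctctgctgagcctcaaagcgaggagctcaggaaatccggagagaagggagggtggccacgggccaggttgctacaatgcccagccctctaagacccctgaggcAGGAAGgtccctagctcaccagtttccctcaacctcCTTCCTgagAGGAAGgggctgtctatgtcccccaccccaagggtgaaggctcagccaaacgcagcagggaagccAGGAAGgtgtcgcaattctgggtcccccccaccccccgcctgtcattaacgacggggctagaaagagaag
Kit: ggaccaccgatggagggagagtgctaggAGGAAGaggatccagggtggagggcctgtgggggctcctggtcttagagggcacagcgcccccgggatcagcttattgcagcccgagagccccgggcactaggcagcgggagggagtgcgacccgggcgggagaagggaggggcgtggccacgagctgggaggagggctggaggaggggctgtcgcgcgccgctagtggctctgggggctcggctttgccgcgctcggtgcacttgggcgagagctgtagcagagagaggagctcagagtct
*Csf3r* held 3 forward matches and 1 reverse match, *Csf2ra* 2 forward matches and *Kit* 1. The promoter of *Csf2rb2* held 2 reverse matches, and those of *Flt3* and *Csf1* held none. Promoters of 6 of the 8 genes were searched, and those of *Csf1r* and *Csf2rb* were not. Of 32851 promoters of this length, 35.4% hold a match on either strand. A match is therefore not particular to these genes and is no evidence of binding.

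*Flt3* was highest in type 1 dendritic-like cells, the cross-presenting lineage that depends on FLT3, with 362 CPM in 34 β-glucan cells and 291 CPM in 26 PBS cells, a log2 ratio of 0.31 (0.027 to 0.60). In so few cells 30.4% of 6385 genes were at least 1.2-fold higher, and after matching on long-gene UMIs (22 cells per library) the log2 ratio was 0.0017. Cluster 7, led by the dendritic chemokine genes *Ccl17* and *Ccl22*, was the second highest at 167 and 92.7 CPM, a log2 ratio of 0.85 (0.70 to 0.997), in a cluster where 19.4% of 6527 genes were at least 1.2-fold higher. Cluster 11 had 20.4 and 10.8 CPM, a log2 ratio of 0.92 (0.29 to 1.55), where 15.1% of 6417 genes were at least 1.2-fold higher. Finer clustering kept most of cluster 7 together (544 of its 561 cells), and *Flt3* there was 151 and 88.6 CPM, a log2 ratio of 0.77 (0.62 to 0.92). Proliferating-like cells had 46.7 and 56.8 CPM. Macrophage-like cells had 11.3 and 11.1 CPM, but their clusters differed, from 34.7 and 33.6 CPM in cluster 0 to 1.21 and 0.769 CPM in cluster 2. Over the compartment the log2 ratio was -0.03 (-0.12 to 0.07), although *Flt3* was higher in 8 of 10 clusters. Cluster 7 held fewer β-glucan cells but more *Flt3* per UMI in them. *Flt3* lies at chr5:147267551-147337483 (GRCm39) and overlaps Gm26597 on the other strand, which was also counted.

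*Kit* marked the mast-like cells, at 1851 CPM with β-glucan and 1974 CPM with PBS, which together held 77.0% of its UMIs. Type 1 dendritic-like cells came next at 114 and 146 CPM, with a *Kit* UMI in 86.7% of 60 cells, followed by endothelial-like cells (125 and 38.4 CPM in 27 and 18 cells) and cluster 14, a T cell-like cluster with *Il13*, *Gata3* and *Foxp3* among its leading genes (103 and 49.3 CPM). The gene lies at chr5:75735576-75817404 (GRCm39). Macrophage-like cells had 0.601 and 0.232 CPM, from 29 and 9 UMIs. In cluster 7 *Kit* was at 19.5 CPM (80 UMIs) with β-glucan and 5.32 CPM (47 UMIs) with PBS, a log2 ratio of 1.87 (1.34 to 2.43), alongside the higher *Flt3* there.

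The mast-like cluster proved to be of 2 kinds when its cells were split by whether the mast cell or the basophil markers gave more UMIs. Mast-type cells numbered 192 (93 with β-glucan and 99 with PBS) and basophil-type cells 16 (4 and 12). *Kit* was at 2128 CPM (2040 to 2219) in mast-type cells and detected in 99.5% of them, whereas in basophil-type cells it gave 2 UMIs in all, both in 1 cell, and in a sub-cluster of 14 cells with basophil genes it gave 0 UMIs. *Csf2rb* was 335 CPM (300 to 372) in mast-type and 1183 CPM (994 to 1397) in basophil-type cells, and *Csf2rb2* 100.2 CPM and 579 CPM. The lower *Csf2rb* of the β-glucan mast-like cells was smaller in mast-type cells alone, at 318 and 355 CPM (log2 ratio -0.16, -0.47 to 0.16). Between the libraries *Kit* in mast-type cells was 1904 CPM with β-glucan and 2402 CPM with PBS, and the log2 ratio was -0.34 (-0.46 to -0.21). This rested on 1 sub-cluster of high depth and low *Kit* with 16 β-glucan and 6 PBS mast-type cells (916 and 1358 CPM), and in the other 77 and 93 cells *Kit* was 2621 and 2650 CPM, a log2 ratio of -0.02 (-0.15 to 0.12). Over the whole cluster it was -0.09 (-0.21 to 0.03), where 25.9% of 6637 genes were at least 1.2-fold lower. Equal weight per cell (0.066) and leaving out cells of highest doublet score (0.12) gave the opposite sign. Macrophage RNA was also higher in the β-glucan mast-like cells, 2644 compared with 1100 CPM of its markers.

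*Csf1*, the ligand of CSF1R, was almost absent from the cells with most of its receptor. The compartment had 1.98 CPM with β-glucan and 2.97 CPM with PBS and held 10.3% of the 2990 *Csf1* UMIs in 80.5% of the cells. The log2 ratio there was -0.58 (-0.92 to -0.25) and had the opposite sign, 0.47, with equal weight per cluster. That setting gives full weight to type 1 dendritic-like cluster 18. It had 15.3 CPM from 10 *Csf1* UMIs in 34 β-glucan cells and 0 UMIs in 26 PBS cells. The log2 ratio was -0.96 (-1.43 to -0.50) in macrophage-like and -0.12 (-0.98 to 0.73) in APC-like cells. Neutrophil-like cells held 38.2% of the UMIs in 4.17% of the cells, stromal-like cells 18.6% and T cell-like cells 3.81%. The 16 basophil-type cells, 0.156% of all cells, held 18.9%. *Csf1* in them was 4808 CPM (4419 to 5221), compared with 202 CPM (176 to 232) in mast-type cells, and was detected in 16 of 16. The 4 β-glucan cells had 1 to 50 *Csf1* UMIs with a median of 3, and the 12 PBS cells 1 to 172 with a median of 26, so the ranges overlapped. A single PBS cell with 24784 UMIs gave 172 of the 565 *Csf1* UMIs, and without it the level was 4238 CPM (3829 to 4678). *Csf1*, at chr3:107648364-107667806 (GRCm39), was not among the markers that split the cells.

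*Csf1* was lower with β-glucan in most classes that expressed it. In mast-like cells it was 312 CPM with β-glucan and 1050 CPM with PBS. There basophil-type cells were 4 of 97 and 12 of 111 cells, and in mast-type cells alone *Csf1* was 221 and 179 CPM, the other way (log2 ratio 0.30, -0.11 to 0.72). Of all cells kept, basophil-type cells were 0.0702% (0.0191 to 0.180) in the β-glucan library and 0.264% (0.136 to 0.460) in the PBS library. In neutrophil-like cells *Csf1* was 169 and 352 CPM, a log2 ratio of -1.06 (-1.23 to -0.89). Unlike that of *Csf3r*, this difference was also present in the *Retnlg*-led finer cluster, at 405 and 657 CPM (-0.70, -0.95 to -0.45). In cells without a C1q UMI *Csf1* was at 313 and 696 CPM (-1.15, -1.49 to -0.82). *Csf3r* was also lower in those cells, by less (-0.18, -0.32 to -0.033). The *Csf1* difference was not present in the *Acod1*-led cluster, at 131 and 130 CPM (0.0098, -0.29 to 0.32). Stromal-like cells had 103 and 166 CPM (-0.69, -0.94 to -0.45), and cluster 14 had 44.7 and 81.4 CPM (-0.86, -1.50 to -0.26). Endothelial-like cells, 27 and 18 cells, had 130 and 109 CPM (0.26, -0.57 to 1.15).

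Most of the other ligands were scarce in this sort, but *Kitl* and *Flt3l* were not. *Il34* gave 183 UMIs and was highest in stromal-like cells at 37.7 CPM. *Kitl*, stem cell factor, gave 2893 UMIs, of which 1263 and 969 were in the compartment with β-glucan and PBS. Its level was highest in stromal-like cells at 39.8 CPM, from 171 UMIs. *Flt3l* gave 1230 UMIs, of which 472 and 442 were in the compartment. Its level was highest in T cell-like cells at 40.0 CPM, from 110 UMIs. *Csf2*, which encodes GM-CSF, gave 24 UMIs in all, 23 of them in T cell-like cells, *Csf3* gave 1 UMI, and *Il3* gave 0 UMIs, a count that allows up to 3. In T cell-like cells *Il5* gave 30 of its 35 UMIs. In the compartment *Kitl* was at 19.4 CPM with β-glucan and 16.1 CPM with PBS (log2 ratio 0.27, 0.15 to 0.40), and *Il3ra*, the IL-3 receptor α chain, at 20.5 and 22.2 CPM (-0.11, -0.22 to -0.0027).

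Among 39 ligand, signalling and regulator genes with at least 5 CPM in the compartment, 21 were higher and 18 lower with β-glucan, 2 at least 1.2-fold higher (5.13%) and 7 at least 1.2-fold lower (17.9%). Among all genes at that level 57.7% were higher, 6.80% and 4.49% passed 1.2-fold in these directions, and the median log2 ratio was 0.028 compared with 0.0052 for the 39. The ratios of the 39 genes were taken over the whole compartment only. Its make-up differed between the libraries. Cluster 7 held 193 β-glucan and 368 PBS cells, and the 5 MHC class II markers summed to 7199 and 10794 CPM. The part of the make-up in these ratios was not tested. With TMM scaling, 16 of the 39 and 52.0% of all genes were higher, and *Kitl* was no longer past 1.2-fold. Of the 17 kinase, adaptor and phosphatase genes that act below CSF1R and KIT, 12 were higher and 5 lower (7 and 10 with TMM scaling), and 0 reached 1.2-fold in either direction. *Pik3cd*, a phosphoinositide 3-kinase subunit of leukocytes, had the highest log2 ratio at 0.21 (0.15 to 0.27), and *Fyn*, a SRC family kinase, the lowest at -0.17 (-0.21 to -0.13).

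Of the 9 JAK-STAT genes measured below the β chain and the G-CSF receptor, 4 were higher and 5 lower. Of these 9, 4 were at least 1.2-fold lower and 0 at least 1.2-fold higher. *Jak2*, the kinase bound to the β chain, was at 79.0 CPM with β-glucan and 97.5 CPM with PBS (log2 ratio -0.30, -0.36 to -0.25). The other 3 past 1.2-fold were *Pim1*, a survival kinase, at 90.8 and 126 CPM (-0.47, -0.52 to -0.42), *Socs3*, a feedback inhibitor, at 71.2 and 92.2 CPM (-0.37, -0.43 to -0.32), and *Mcl1*, an inhibitor of apoptosis, at 582 and 726 CPM (-0.32, -0.34 to -0.30). *Cish*, a feedback inhibitor of STAT5 signalling, had a mean below 5 CPM, at 2.43 and 5.30 CPM. So had *Socs1* (1.06 and 2.85 CPM) and *Socs2* (2.87 and 4.77 CPM). With a minimum of 1 CPM, 12 JAK-STAT genes were measured, 4 higher and 8 lower. At least 1.2-fold lower were 7 of the 12 (58.3%), compared with 7.77% of all genes at that level. *Stat5b*, by contrast, was at 93.5 and 79.8 CPM (0.23, 0.17 to 0.28). Of the transcription factors, *Cebpb* was at 224 and 367 CPM (-0.71, -0.74 to -0.68), *Ets2* at 37.9 and 60.2 CPM (-0.67, -0.74 to -0.59) and *Cebpa* at 113 and 139 CPM (-0.30, -0.34 to -0.25). *Irf8*, a factor of monocytes and dendritic cells, was at 100.2 and 82.0 CPM (0.29, 0.23 to 0.34), while *Spi1* differed little at 384 and 405 CPM (-0.08, -0.10 to -0.05). *Pim1*, *Socs3*, *Mcl1*, *Cebpb* and *Ets2* were each highest in neutrophil-like cells. The 6 neutrophil markers summed to 19.6 CPM with β-glucan and 120 CPM with PBS in the compartment. This sum was not split by gene and can rest on 1 gene. The part of neutrophil RNA in these results was not tested. The proteases that shed CSF1R and CSF1 were near 0, with -0.03 for *Adam17* and 0.08 for *Adam10*.

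**Figure D5:**
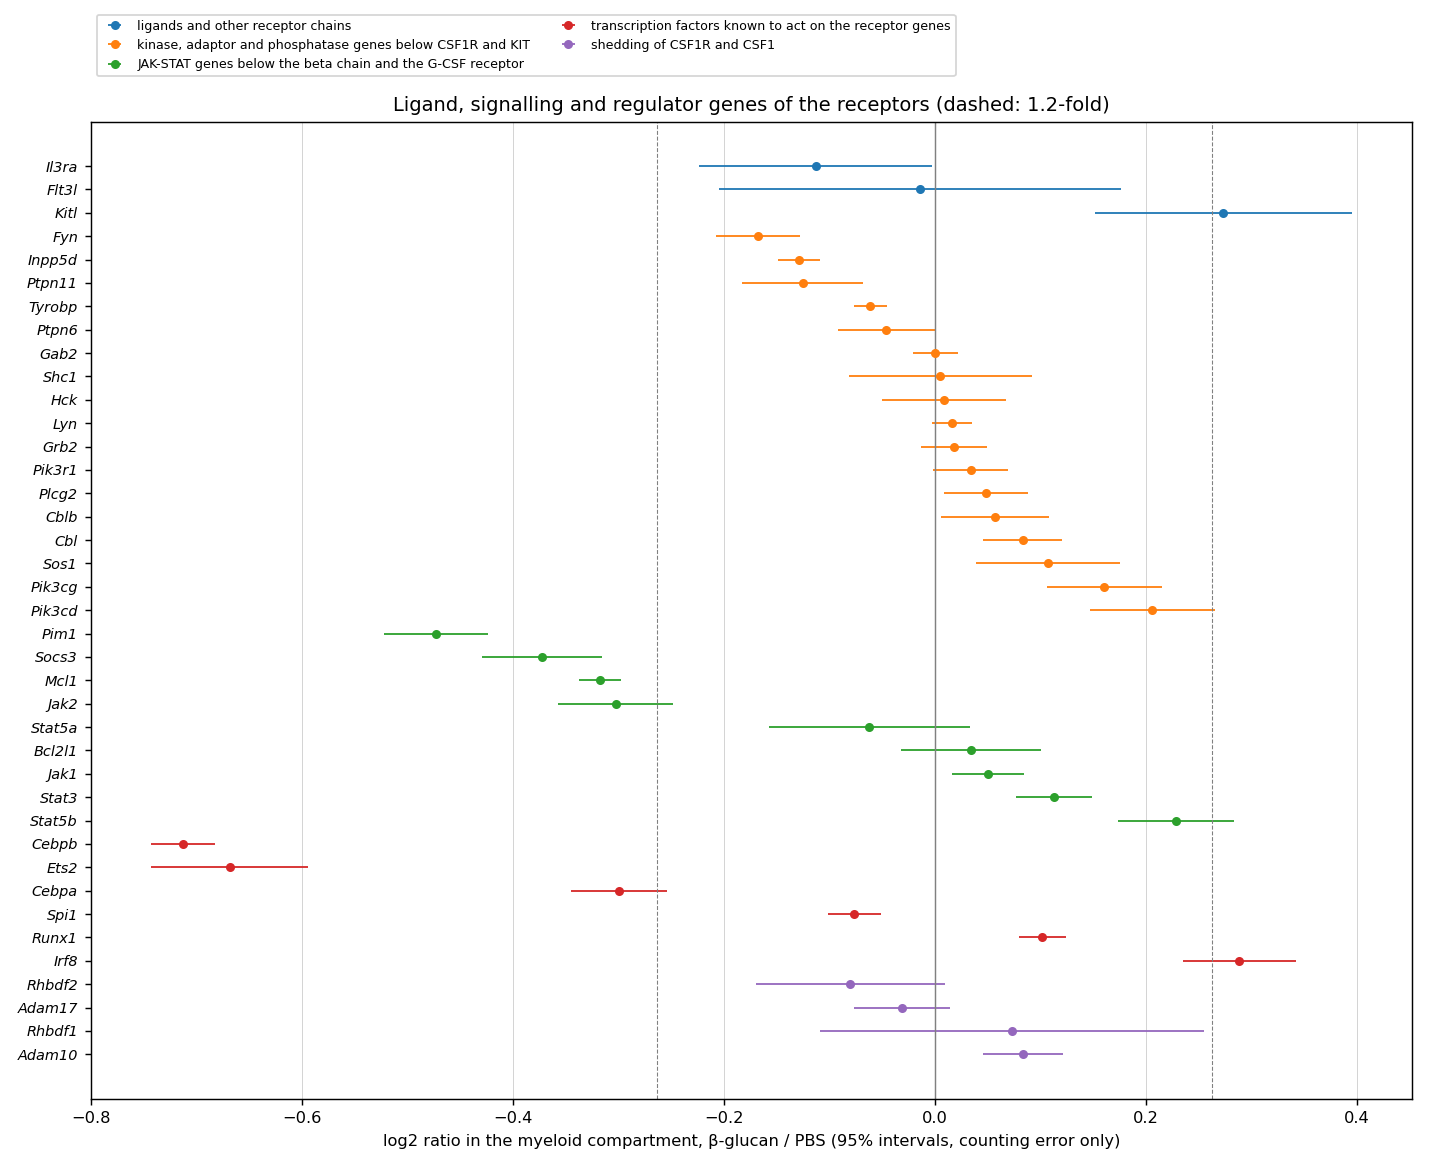
Log2 ratio of β-glucan over PBS in the myeloid compartment for the 39 ligand, signalling and regulator genes with at least 5 CPM, coloured by list, with exact 95% intervals for counting error and dashed lines at 1.2-fold. *Cebpb*, *Ets2*, *Pim1*, *Socs3*, *Mcl1*, *Jak2* and *Cebpa* lay beyond the lower line and *Irf8* and *Kitl* beyond the upper.

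Genes with the most similar pattern were found by the correlation of log2(CPM + 1) over 38 points, 19 clusters in each of the 2 libraries, among 7745 genes. These points share libraries and depth, and the values are a description. *Csf1r* was closest to *C1qa* (Pearson's r = 0.98), *Adgre1* (0.97) and *C1qc* (0.97). *Csf2ra* was closest to *Tep1* (0.92), *Alcam* (0.91) and *Slamf9* (0.91), and *Csf2rb* to *Bid* (0.87), *Ptpre* (0.86) and *Prkcd* (0.84). *Csf2rb2* was closest to *Itprid2* (0.89), *Rgs18* (0.88) and *Slc31a2* (0.85). *Csf3r* was closest to *Rnf149* (0.83), *Gm5150* (0.83) and *Sirpb1b* (0.81), *Flt3* to *Amz1* (0.85), *Plbd1* (0.85) and *Fndc7* (0.85), *Kit* to *Myb* (0.86), *Gfpt1* (0.84) and *Gcsam* (0.82), and *Csf1* to *Arf4* (0.86), *Ncam1* (0.84) and *Egr1* (0.83).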

How the data were processed

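The authors deposited UMI counts per gene and barcode for 2 libraries, made with Cell Ranger 7.0.0 on GRCm39 with Ensembl 104 genes, per the study's methods and the submitters' processing notes (which also list mm10), without normalization. Whether intronic reads were counted is not given in the sources used here. Cells were filtered, normalized with SCTransform (3000 variable genes) and clustered (30 principal components, Louvain resolution 0.7) with Seurat 5.3.0 (sctransform 0.4.2, R 4.3.3), without integration and without the 8 genes. Classes needed at least 3 markers, each in 25% of cells. All sums, shares and ratios came from Python 3.11.15 (scanpy 1.11.5), and TMM factors from edgeR 4.0.16. The libraries held 81611849 (β-glucan) and 73874602 (PBS) UMIs. CPM intervals are exact Poisson, shares Clopper-Pearson, and log2 ratios conditional binomial. UMIs removed PCR duplicates, but not differences between mice or preparations. Scrublet called 1 and 7 cells and was taken not to have worked, so doublets were kept, and leaving out the 328 and 210 cells of highest score was an alternative. The 8 genes, the gene lists and the marker lists were chosen with earlier results of these data known. Genes named were the 8, the genes of the lists, and the 3 most correlated with each of the 8. Genes that lead clusters are named to identify them. Coordinates come from GENCODE vM39 (GRCm39), in which 31870 of 32524 gene IDs were found. Ratios, intervals and thinning were tested on Poisson counts simulated at set rates. These had no spread between cells, mice or preparations, so the test checks the calculation only. Alternatives were other filters, doublets, clustering settings, scalings, weights, thinning and matching, and those without cluster 7, without C1q-positive cells, and in mast-type cells alone or without their deepest sub-cluster were added after seeing the data.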

Additional observations from a re-analysis of the deposited data

Results flagged for a closer look

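The log2 ratio of β-glucan over PBS lay on opposite sides of 0, with intervals that left out 0, in different clusters for 3 of the 8 genes, and the differences between clusters were not tested. For *Csf1r* it was 0.10 in macrophage-like cluster 2 and -0.26 in cluster 7, which was led by *Ccl17* and *Ccl22*. The finer cluster that shared 544 cells with cluster 7 had a smaller *Csf1r* value, -0.094 (-0.18 to -0.0069). For *Csf2rb2* it was 0.41 in cluster 7 and -0.36 in APC-like cluster 3. For *Kit* it was 1.87 in cluster 7 and -1.96 in cluster 9, where the libraries had 4 and 13 *Kit* UMIs.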

How the results depend on the processing

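Of 136 values recomputed under an alternative, 103 stayed within their counting interval or limit. The 136 include 116 log2 ratios, of which 8 changed sign, 5 of these from a value whose interval left out 0, and the cause was not tested. In the compartment the log2 ratio of *Csf1r* changed sign with equal weight per cluster (-0.013) and on cells matched for long genes (-0.019), and was 0.10 with TMM scaling, 0.10 with equal weight per cell, 0.059 in thinned cells and 0.048 without cluster 7. That of *Csf2ra* stayed negative throughout, at -0.17 with equal weight per cluster, -0.087 on matched cells and -0.24 without cluster 7. That of *Csf2rb* was 0.22, 0.21 and 0.095 under the same settings, and that of *Csf1*, -0.58 as reported, was 0.47 with equal weight per cluster, -1.01 per cell and -0.14 on matched cells. *Csf3r* in neutrophil-like cells was at -1.22 without cells of highest Scrublet score, -0.85 with TMM, -0.40 per cell, -0.33 thinned, -0.69 matched, -0.18 in cells without C1q UMIs and 0.40 over all cells of the sort. *Flt3* in dendritic-like cells was at 0.0017 when matched and -0.088 over all cells. *Kit* in mast-like cells was at 0.12 without cells of highest Scrublet score, 0.066 per cell, 0.070 thinned and -0.34 in mast-type cells alone (-0.02 without their deepest sub-cluster), and its level in basophil-type cells was 0 in a sub-cluster of the mast-like cells. The share of cells with *Csf2ra* and either β chain gene was 10.5% and 12.03% at 4000 UMIs, and 42.2% and 48.9% without thinning, with β-glucan and PBS. The ratio of *Flt3* in dendritic-like cells was not given with fewer principal components, where no such class formed, or with equal weight per cluster, since it is 1 cluster. With 1 library per group, mouse-to-mouse spread is unknown. No paired analysis was possible because each group has 1 library.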
